A study of Mus musculus with 4 samples.

Results

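The genes described here are 10 regulators of apoptosis of the Bcl2 family: Mcl1, Bcl2l1, Bcl2a1d, Bax, Bak1, Bid, Bcl2l11, Bbc3, Bik and Bcl2l15. They were looked up by symbol in a table of 17604 genes, where all 10 were found, and each averaged at least 1 FPKM over the 4 libraries. FPKM are fragment counts scaled to transcript length and to library size. RNA was sequenced from colonic epithelial cells of wild-type and Stat4-/- mice, both labelled C57BL/6, which had attached to Matrigel for 24 h. Cells of each genotype were left untreated or received LIF at 20 ng/ml. LIF, or leukemia inhibitory factor, is a cytokine that signals through gp130 and JAK-STAT proteins. Each of the 4 groups has 1 library. Values are given in a fixed library order: untreated wild type, LIF-treated wild type, untreated Stat4-/-, LIF-treated Stat4-/-. Stat4, the gene disrupted in the Stat4-/- mice, encodes a STAT transcription factor. The age and sex of the mice, the number pooled per library and the length of LIF exposure of each library are not stated in the labels. The series' design text speaks of duplicates, but 1 value per group is given.

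Proteins of this family decide whether the outer mitochondrial membrane is made permeable, the step that releases cytochrome c and starts the caspase cascade. Anti-apoptotic members (Mcl1, Bcl2l1, Bcl2a1d) bind and hold back the pore-forming effectors Bax and Bak1, and BH3-only members (Bid, Bcl2l11, Bbc3, Bik) release or activate the effectors. In the intestine this balance bears on the loss of cells that detach from their matrix or are damaged, and much of it is set at the protein level, which RNA does not show.

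With 1 library per group, a difference between libraries has no replicate check. The 10 genes were chosen by symbol with their FPKM in all 4 libraries known, so their values are a description and carry no test. Differences are of log2(FPKM + 1), which understates the change of low genes, and a gene was counted as past 1.5-fold at an absolute difference of 0.585. The files hold no counts. From the steps of low FPKM values the depths came to about 24.4, 22.0, 23.0 and 27.8 M fragments in library order. Each depth was chosen as the one that brought low values closest to whole counts. At these depths 55.7 to 62.9% of low values fell no further than 0.15 fragments from a whole count. Evenly spread values would give 30% at a depth fixed beforehand. Since the depth was chosen on the same values, this share does not check it. With 200 bases taken off each transcript length, the depths came to 29.0, 26.4, 27.8 and 33.1 M fragments, with lower scores for closeness.

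The labelled cell type and genotype were checked first. The 8 general epithelial markers, among them Krt8, Krt19 and Epcam, summed to 8841 to 9459 FPKM in the 4 libraries, and the lowest single value was 109 FPKM. Other cells were also present, with summed levels of 270 to 280 FPKM for 6 fibroblast markers, 169 to 244 for 5 smooth muscle markers, 174 to 217 for 5 endothelial markers, 104 to 124 for 8 macrophage markers, 41.2 to 58.5 for 6 mast cell markers, 22.0 to 38.5 for 6 B and plasma cell markers and 5.53 to 9.25 for 8 T and NK cell markers, of which Nkg7 was listed at 0 in untreated Stat4-/-. Of 8 neutrophil markers 7 were listed, and without Ly6g they summed to 6.40 to 9.62 FPKM. Ly6g itself stood at 145 to 210 FPKM. Of the macrophage sum, Cd14 alone gave 52.82, 63.59, 71.34 and 71.15 FPKM in library order. Stat4 stood at 19.7, 20.5, 2.01 and 2.98 FPKM. The Y-linked genes Ddx3y, Eif2s3y, Kdm5d and Uty summed to 15.9, 16.7, 0.0800 and 0.190 FPKM. Stat4 genotype and whatever else differed between the mice, including these Y-linked transcripts, cannot be told apart.

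Most of the family's RNA was high and close to level across the libraries. Mcl1, Bax, Bcl2l1 and Bak1 together made up 86.8 to 88.9% of the summed FPKM of the 10 genes, and in each library the order was Mcl1, Bax, Bcl2l1 and Bak1 from highest to lowest. Below them came Bid and Bcl2l11, and then Bcl2l15, Bik, Bcl2a1d and Bbc3, whose order changed from library to library. The highest library exceeded the lowest by 1.04-fold for Mcl1 and Bak1, 1.10-fold for Bid, 1.12-fold for Bcl2l1, 1.13-fold for Bcl2l11, 1.17-fold for Bax and 1.25-fold for Bbc3. The same ratio was 1.61 for Bik, 2.05 for Bcl2a1d and 3.42 for Bcl2l15.

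**Figure D1:**
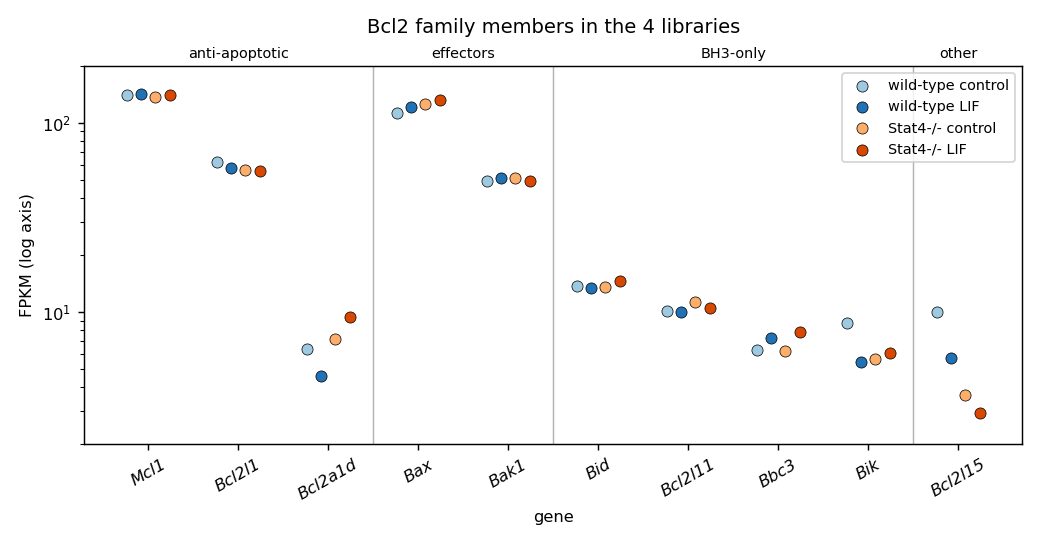
FPKM of the 10 genes (log axis), 1 point per library, ordered by role. Mcl1, Bax, Bcl2l1 and Bak1 stay between 49.0 and 142 FPKM with nearly level points, whereas Bcl2l15 runs from 9.95 FPKM in wild-type control to 2.91 FPKM in Stat4-/- LIF.

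Counts past 1.5-fold were small in every comparison. With LIF in wild type 2 of 10 members were past it (Bcl2l15 and Bik, both lower), against 0.872% of the 12274 tested genes. With LIF in Stat4-/- it was 0 of 10, against 0.994%. Between genotypes it was 1 of 10 in the control libraries (Bcl2l15, lower in Stat4-/-), against 3.21%, and 2 of 10 in the LIF libraries (Bcl2l15 lower and Bcl2a1d higher in Stat4-/-), against 3.8%. For the difference of the LIF effects it was 2 of 10 (Bik and Bcl2a1d), against 2.69%. Past 2-fold the counts were 0, 0, 1, 0 and 0 in the same order, against 0.13, 0.122, 0.603, 0.75 and 0.342% of tested genes. The members were listed with these differences known, so nothing is read from the excess over the background. Median differences of the 10 members in the same order were -0.02, 0.06, -0.01, 0.08 and 0.10, beside medians between -0.02 and 0.00 over all tested genes.

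**Figure D2:**
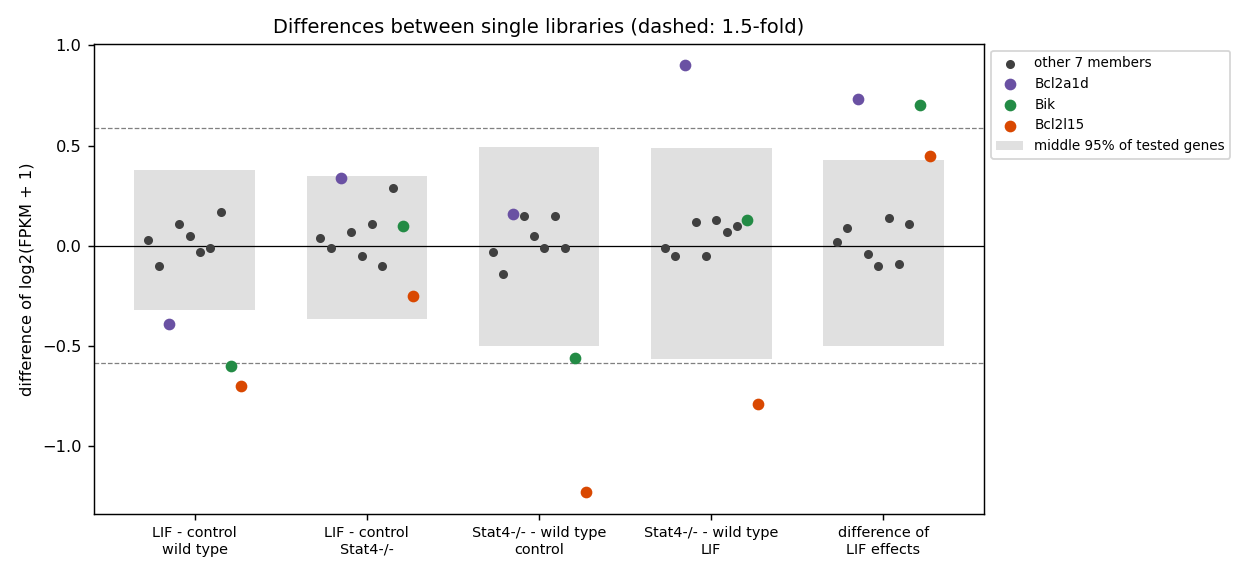
Differences of log2(FPKM + 1) for the 10 genes in 5 comparisons, with the middle 95% of all tested genes as grey bars and the 1.5-fold rule as dashed lines. Bcl2l15 is the lowest point in 4 of the 5 comparisons, from -1.23 to -0.25, and the 7 members drawn in grey stay between -0.14 and 0.29 throughout.

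Mcl1, an anti-apoptotic protein with a very short half-life, was the most abundant member. It was at 139, 142, 136 and 141 FPKM in library order. The genotypes overlapped on the deposited scale, and both LIF libraries stood above their own control by 0.03 and 0.04 on the log2 scale, although over the alternative settings the wild-type value ran from -0.01 to 0.03.

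Bcl2l1, which encodes the anti-apoptotic protein Bcl-xL, was at 62.2, 57.8, 56.3 and 55.8 FPKM. The wild-type control library was the highest and the other 3 lay close together. Both Stat4-/- libraries were below both wild-type libraries, by 0.14 without and 0.05 with LIF on the log2 scale.

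The effector gene Bax was at 113, 121, 125 and 132 FPKM. Each LIF library was above its control (log2 differences of 0.11 in wild type and 0.07 in Stat4-/-), and both Stat4-/- libraries were above both wild-type libraries (0.15 without and 0.12 with LIF). Bax and Bcl2l1 thus lay in opposite order, and the ratio of their FPKM was 1.81, 2.10, 2.23 and 2.36. The ratio was computed after the values were seen. The other effector gene, Bak1, was at 49.0, 50.7, 50.8 and 49.1 FPKM with overlapping genotypes, and 20.4% of its 31-base words are shared with Ggnbp1 on the opposite strand, so without strand its reads cannot be fully separated from that gene. Bax shares 11.1%, mostly with Gm45808 on its own strand.

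Bid, which is cut by caspase-8 and carries the death receptor signal to mitochondria, was at 13.7, 13.3, 13.5 and 14.6 FPKM. Bcl2l11, which encodes Bim, was at 10.1, 10, 11.3 and 10.5 FPKM, with both Stat4-/- libraries slightly above both wild-type libraries. Bbc3, which encodes the p53-induced protein Puma, was at 6.30, 7.24, 6.24 and 7.83 FPKM. Here the LIF libraries were the 2 highest, above their controls by 0.17 in wild type and 0.29 in Stat4-/- on the log2 scale, while the controls of the genotypes differed by 0.01. Bid shares 16.9% of its 31-base words with its neighbour Bcl2l13 on the opposite strand.

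Summed by role, the anti-apoptotic genes Mcl1, Bcl2l1 and Bcl2a1d came to 208, 204, 200 and 206 FPKM. The effectors Bax and Bak1 came to 162, 172, 176 and 181 FPKM, and the BH3-only genes Bik, Bid, Bcl2l11 and Bbc3 to 38.8, 36.0, 36.7 and 39.1 FPKM. Both Stat4-/- libraries were above both wild-type libraries in the effector sum, and the genotypes overlapped in the other sums.

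Bik (ENSMUSG00000016758, chromosome 15, 83526862 to 83544634 in mm10), a BH3-only protein of the endoplasmic reticulum, was high in a single library. It was at 8.78 FPKM in wild-type control, 5.46 FPKM in wild-type LIF, 5.62 FPKM in Stat4-/- control and 6.09 FPKM in Stat4-/- LIF. The wild-type control library stood 1.61-fold above wild-type LIF and 1.56-fold above Stat4-/- control, and the other 3 libraries lay within 5.46 to 6.09 FPKM. LIF was therefore 0.60 lower than control in wild type and 0.10 higher in Stat4-/- on the log2 scale, and the genotypes overlapped. At the estimated depths these values rest on about 118, 66, 71 and 93 fragments if the shortest coding transcript of 550 bases is taken, and on 286, 160, 173 and 226 with the longest of 1335 bases. The counting SD is then 5.91 to 12.3% of a value, and this covers counting error only. No 31-base word of Bik occurs in another annotated gene.

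Bcl2l15 (ENSMUSG00000044165, chromosome 3, 103832601 to 103854618 in mm10, plus strand), a weakly pro-apoptotic member also called Bfk and known from the gastrointestinal tract, had the widest range. It was at 9.95 FPKM in wild-type control, 5.74 FPKM in wild-type LIF, 3.66 FPKM in Stat4-/- control and 2.91 FPKM in Stat4-/- LIF. Both Stat4-/- libraries were below both wild-type libraries, 2.72-fold without and 1.97-fold with LIF, and each LIF library was below its control, 1.73-fold in wild type and 1.26-fold in Stat4-/-. On the log2 scale the genotype differences were -1.23 and -0.79 and the LIF differences -0.70 and -0.25. On its shorter coding transcript of 833 bases these values correspond to about 202, 105, 70 and 67 fragments, with a counting SD of 7.03 to 12.2%. On the longer one of 1902 bases they correspond to about 462, 240, 160 and 154 fragments, with a counting SD of 4.65 to 8.06%. The LIF difference within Stat4-/- thus rests on 70 against 67 or on 160 against 154 estimated fragments, in libraries of unequal depth. Of its 31-base words, 20.2% are shared with the overlapping gene Gm43064 on the same strand.

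The sequence upstream of Bcl2l15 is shown because this gene had the widest range. RefSeq (GRCm38.p6) places its start at position 103832696 of chromosome 3, and the stretch printed, chr3:103832446-103832600 on the plus strand, ends before the start in the GENCODE annotation.
Bcl2l15: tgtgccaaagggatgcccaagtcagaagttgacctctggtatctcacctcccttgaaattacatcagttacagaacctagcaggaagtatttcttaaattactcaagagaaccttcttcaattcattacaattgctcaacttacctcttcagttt

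Its RefSeq promoter window, 250 bases before to 50 after the start, held 0 CG dinucleotides, as did 5.43% of 32851 promoter windows, whose median was 7. The windows of Mcl1, Bax, Bid and Bak1 held 33, 19, 22 and 11, that of Bcl2a1d held 4, and those of Bcl2l1 held 1, 14 and 22. Windows were found for 9 of the 10 members (14 windows, since Bcl2l1, Bcl2l11 and Bbc3 have several). They were searched on both strands for the STAT-type motif TTCNNNGAA (in 8.3% of all promoter windows) and the interferon-response consensus (3.44%). Also searched were the pattern TGANTCA (7.81%), the NF-kB consensus (4.51%) and the p53 half-site consensus (8.36%). TGANTCA allows any middle base and is looser than the AP-1 consensus TGA(C/G)TCA. Matches to TTCNNNGAA and to the interferon-response consensus were found in 0 of the 14 windows. TGANTCA matched in Bcl2a1d, the NF-kB consensus in Bbc3 and in 1 of the windows of Bcl2l1, and the p53 half-site in Bax. The match in Bcl2a1d reads TGAATCA, which is outside the AP-1 consensus. A match is a description of letters and not a bound site.

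Beside Bcl2l15, markers of mature epithelial cells also differed between genotypes. Of 8 absorptive markers, 6 were lower in both Stat4-/- libraries than in both wild-type libraries and 2 (Car1 and Guca2a) were higher, and the list summed to 864, 902, 762 and 717 FPKM. All 7 goblet markers were lower in both Stat4-/- libraries, and their sum was 961, 954, 646 and 529 FPKM. No marker of either list was at 0. In bulk samples, fewer cells of a type and less RNA per cell cannot be told apart, and the part of these cells in the Bcl2l15 values was not tested. In the wild-type LIF library Bcl2l15 was 0.70 below control, while 3 of 8 absorptive and 5 of 7 goblet markers were below it, the lowest being Slc26a3 at -0.42. In the Stat4-/- LIF library Bcl2l15 was 0.25 below control. There 2 of 8 absorptive and 1 of 7 goblet markers were above control, and the lowest were Slc26a3 at -0.50 and Clca1 at -0.44.

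**Figure D3:**
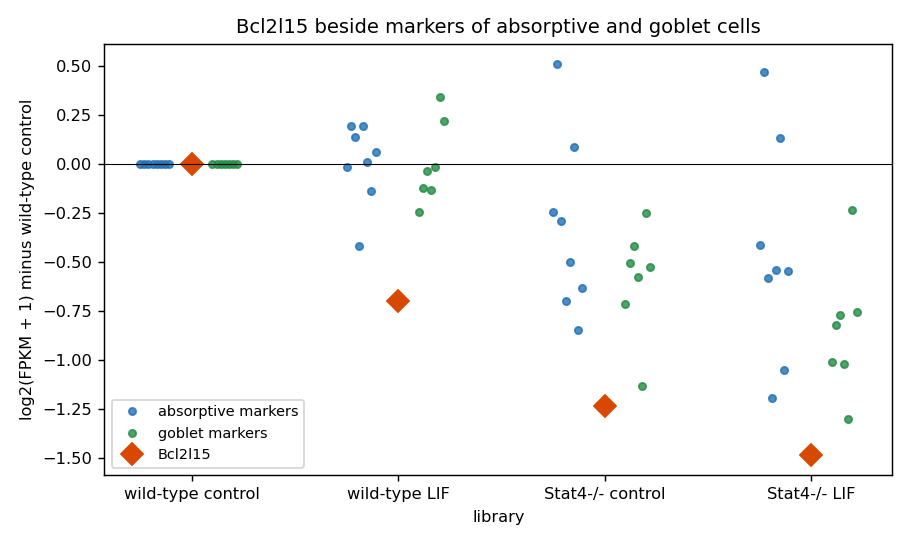
Level of Bcl2l15 (diamonds), 8 absorptive markers and 7 goblet markers in each library, as log2(FPKM + 1) minus the value in wild-type control. Bcl2l15 lies below every marker shown in the 3 other libraries.

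Over the 4 libraries the genes whose profile lay closest to Bcl2l15, by Euclidean distance of centred log2(FPKM + 1) among 11932 genes, were Slc17a4 (distance 0.248), Saa2 (0.286) and Gfap (0.308). Slc17a4, an intestinal phosphate and urate transporter gene, was at 6.28, 4.54, 2.81 and 1.93 FPKM. Closest to Bik were Ankrd13d (0.109), Sstr2 (0.119) and Cygb (0.124). With 4 libraries such likeness is a description of levels only.

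Bcl2a1d (ENSMUSG00000099974, chromosome 9, 88723285 to 88731914 in mm10, minus strand) encodes an A1 protein, an anti-apoptotic member known mainly from leukocytes and induced by NF-kB. It was at 6.35 FPKM in wild-type control, 4.59 FPKM in wild-type LIF, 7.23 FPKM in Stat4-/- control and 9.41 FPKM in Stat4-/- LIF. LIF was lower than control in wild type (-0.39) and higher in Stat4-/- (0.34), and both Stat4-/- libraries were above both wild-type libraries, 1.14-fold without and 2.05-fold with LIF. These values correspond to about 134, 87, 144 and 226 fragments on its single transcript of 863 bases. The counting SD of 6.66 to 10.7% covers counting error only, not the assignment of reads among the near-identical copies described below. The closest profiles were those of Ephx1 (distance 0.0698), Tmem190 (0.155) and Ube2ql1 (0.158).

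Bcl2a1d has near-identical copies, and its value depends on how reads were assigned among them. The coding sequences of Bcl2a1a, Bcl2a1b and Bcl2a1d are each 519 bases long and the same at 507 positions. Bcl2a1d differs from Bcl2a1a at 7 positions and from Bcl2a1b at 6, and only 1 position sets it apart from both. Of its 31-base words 89.1% occur in another listed gene. The first 120 coding bases (GENCODE M21 transcripts, chromosome 9) are shown because they hold 7 of the 12 positions that differ, which are in capitals.
Bcl2a1a: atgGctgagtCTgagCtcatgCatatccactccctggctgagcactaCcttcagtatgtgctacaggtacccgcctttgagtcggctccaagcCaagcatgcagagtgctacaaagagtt
Bcl2a1b: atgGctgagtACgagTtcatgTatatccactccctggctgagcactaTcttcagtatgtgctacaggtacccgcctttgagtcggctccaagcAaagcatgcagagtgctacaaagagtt
Bcl2a1d: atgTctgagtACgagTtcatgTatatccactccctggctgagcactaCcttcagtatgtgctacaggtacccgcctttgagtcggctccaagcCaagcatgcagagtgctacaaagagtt

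Upstream stretches of the copies are shown for the motif they have in common. Each holds TGANTCA in its RefSeq promoter window, as TGAATCA, in capitals below. The stretches lie at chr9:88956773-88956833 (plus strand), chr9:89199082-89199142 (plus strand) and chr9:88731931-88731991 (minus strand) for Bcl2a1a, Bcl2a1b and Bcl2a1d in GRCm38.p6.
Bcl2a1a: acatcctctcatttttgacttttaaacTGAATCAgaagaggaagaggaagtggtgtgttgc
Bcl2a1b: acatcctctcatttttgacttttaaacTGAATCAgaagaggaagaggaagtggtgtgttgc
Bcl2a1d: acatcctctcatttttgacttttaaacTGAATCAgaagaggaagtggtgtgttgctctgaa

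The copies matched Bcl2a1d in part. Bcl2a1b was at 6.54, 7.06, 7.23 and 8.59 FPKM and Bcl2a1a at 4.11, 4.56, 3.75 and 3.32 FPKM. Like Bcl2a1d, Bcl2a1b was higher in both Stat4-/- libraries than in both wild-type libraries and highest in Stat4-/- with LIF, but it was not lower with LIF in wild type. Bcl2a1a was lower in both Stat4-/- libraries. Bcl2a1c stood at 0.320 FPKM or below, with 0 listed in wild-type control. The sum of Bcl2a1a, Bcl2a1b and Bcl2a1d was 17.0, 16.2, 18.2 and 21.3 FPKM, and the share of Bcl2a1d in it was 37.4, 28.3, 39.7 and 44.1%. With Bcl2a1c added, the summed level differed by -0.06 with LIF in wild type and by 0.20 with LIF in Stat4-/-, and by 0.38 between genotypes with LIF, where Bcl2a1d alone differed by 0.90. Beside the higher sum in Stat4-/- LIF, all 8 T and NK cell markers and 5 of 6 B and plasma cell markers were higher with LIF in Stat4-/-, where their sums went from 5.53 to 9.25 and from 22.0 to 33.5 FPKM. Of the T and NK cell markers, 4 averaged under 1 FPKM. In wild type the B and plasma cell sum was higher, at 37.3 and 38.5 FPKM, of which Jchain gave 25.63 and 24.98 FPKM. In Stat4-/- the macrophage markers summed to 124 FPKM without and 116 FPKM with LIF, with 0 of 8 higher with LIF. Of 7 neutrophil markers 2 were higher with LIF there, and without Ly6g they summed to 8.86 and 8.51 FPKM. Of 6 mast cell markers 3 were higher, and their sum went from 41.2 to 44.8 FPKM. The part of leukocytes in the Bcl2a1 values was not tested.

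**Figure D4:**
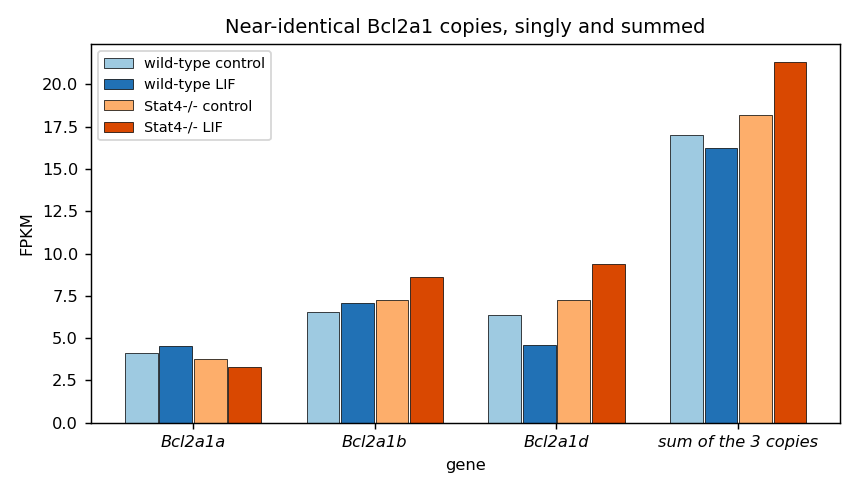
FPKM of Bcl2a1a, Bcl2a1b and Bcl2a1d and their sum in the 4 libraries, 1 bar per library. Bcl2a1d has its lowest bar in wild-type LIF (4.59 FPKM), whereas the sum runs only from 16.2 to 21.3 FPKM.

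By genotype order, 5 of 10 members had both Stat4-/- libraries on one side of both wild-type libraries, namely Bax, Bcl2l11 and Bcl2a1d above and Bcl2l1 and Bcl2l15 below. Over all tested genes 53.3% showed such an order, so the share of the members was near the background. Under upper-quartile scaling and quantile normalization Mcl1 also lay below, which made 3 members instead of 2. Of the 13 other Bcl2 family genes that averaged at least 1 FPKM, 10 showed it, with 4 above and 6 below. An order of 2 libraries against 2 carries no test here.

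The other 16 genes of the family were all listed, and 13 passed the filter on low values. Their LIF and genotype effects were tested with limma, in a fit over all 12274 genes with genotype and LIF as additive terms, so that 2 libraries are set against 2 and any interaction counts as error. For LIF, limma called 0 of the 13 genes at an adjusted p of 0.05, with 0 at an unadjusted p under 0.05 and a median coefficient of -0.01. Over all tested genes 0.701% were called higher and 0.122% lower with LIF, and 1537 of 12274 had an unadjusted p under 0.05. For genotype, 1 of 13 was called higher and 1 lower in Stat4-/-, against 7.81% higher and 7.68% lower over all tested genes, and the median coefficient was -0.06, beside -0.01 over all genes.

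Bok, an effector-like member that can act without Bax and Bak1, was at 16.8, 20.2, 25.2 and 23.2 FPKM. Its coefficient was 0.37 (SE 0.085, limma adjusted p = 0.0128), higher in 2 of 2 treatments. Bcl2l14, which encodes Bcl-G, was at 6.00, 7.80, 4.99 and 5.15 FPKM, and fell by 0.37 (SE 0.108, limma adjusted p = 0.0402) with the Stat4-/- genotype, lower in 2 of 2 treatments. Bok passed in 5 of 7 alternative fits (adjusted p from 0.0115 to 0.156) and Bcl2l14 in 2 of 7 (0.0394 to 0.159).

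The other anti-apoptotic genes did not pass for either effect. Bcl2l2, which encodes Bcl-w, was at 27.32, 27.95, 27.84 and 27.57 FPKM, and Bcl2 itself was low at 1.64, 1.33, 1.12 and 1.16 FPKM. Among BH3-only genes Pmaip1, which encodes Noxa, was the most abundant at 49.6, 47.6, 45.6 and 43.5 FPKM, Bad was at 19.02, 18.97, 18.04 and 20.33 FPKM and Bmf at 1.60, 1.59, 2.10 and 2.03 FPKM. Bcl2l13 lay between 9.51 and 10.8 FPKM and Bcl2l12 between 4.61 and 5.80 FPKM. The mitophagy receptor genes Bnip3 and Bnip3l were at 26.4, 29.5, 31.4 and 22.8 FPKM and at 30.7, 34.8, 29.6 and 26.3 FPKM, so that both were higher with LIF in wild type and lower with LIF in Stat4-/-. Of the 31-base words of Bnip3, 57.0% occur in other annotated genes. Hrk and Bcl2l10 did not exceed 0.160 FPKM in any library.

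Genes that act around the family were described by 5 further lists, of apoptosome and executioner genes, inhibitors of apoptosis, death receptor and necroptosis genes, p53 and its targets, and genes of Mcl1 turnover. Together with the 13 family genes, 72 genes were tested. For LIF, limma called 0 of 72, with 9 at an unadjusted p under 0.05. Over all 12274 tested genes 0.701% were called higher and 0.122% lower, and 1537 had an unadjusted p under 0.05. The 72 genes were thus near the background. For genotype it called 9 higher and 4 lower in Stat4-/- (12.5 and 5.56% of the 72, against 7.81 and 7.68% over all tested genes). Some lists of cell type markers moved with genotype too. Limma called 4 of 5 smooth muscle markers higher and 1 lower in Stat4-/- (median coefficient 0.63), 3 of 5 endothelial markers higher (0.25), 7 of 7 goblet markers lower (-0.73) and 6 of 8 absorptive markers lower and 1 higher (-0.56). It also called 4 of 6 B and plasma cell markers higher and 1 lower (0.73), and 3 of 4 tested mast cell markers lower (-0.41). Of 8 macrophage markers 1 was called higher and 1 lower (-0.11), and of 4 tested T and NK cell markers 0 were called. Among 8 general epithelial markers 1 was called higher and 2 lower (-0.01), and among 6 fibroblast markers 1 higher and 1 lower (0.0). Among 3 tested neutrophil markers 1 was called lower (-0.08). The part of these cells in the genotype calls was not tested.

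**Figure D5:**
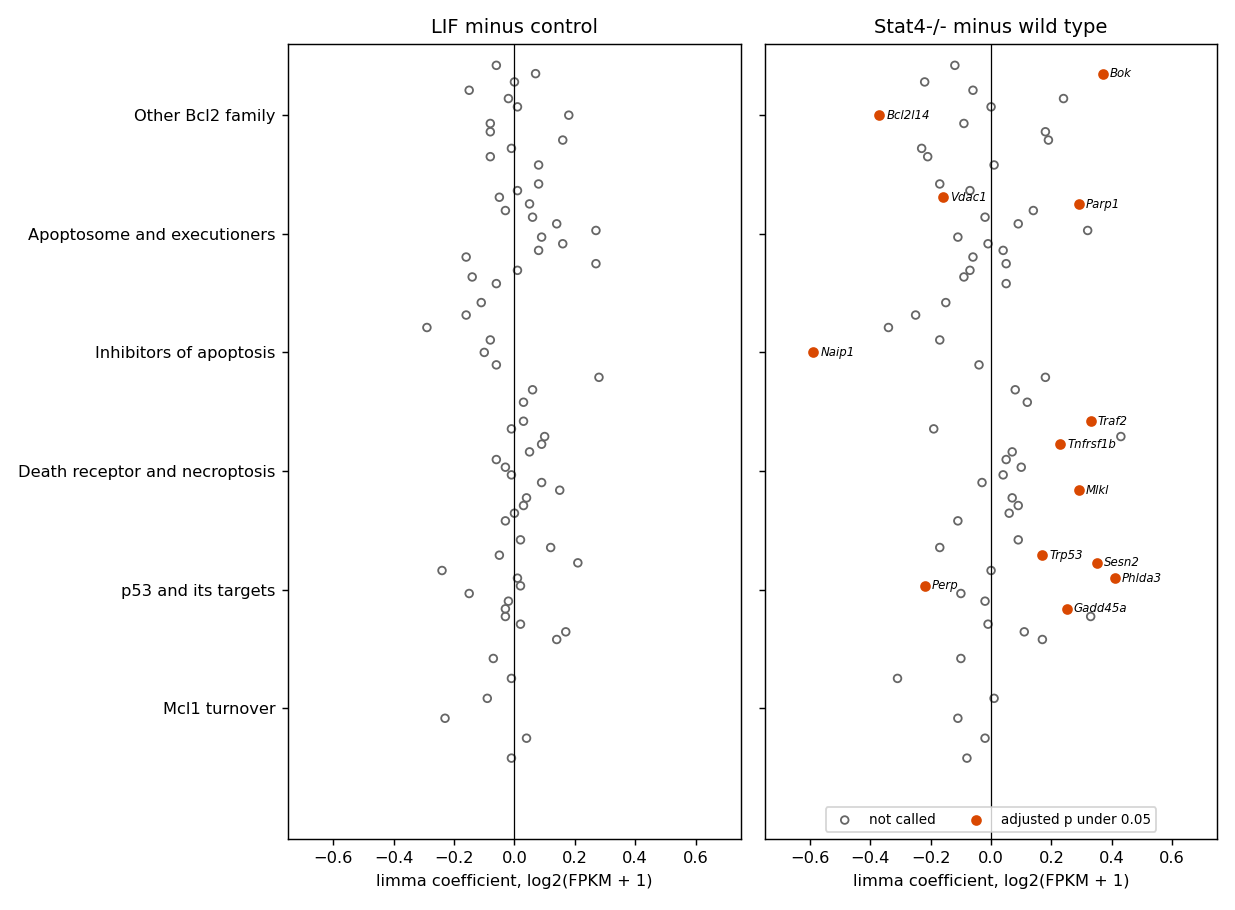
Limma coefficients on log2(FPKM + 1) for the LIF effect (left) and the genotype effect (right) of 72 genes in 6 lists, with filled points for an adjusted p under 0.05. On the left 0 points are filled. On the right 13 are, the lowest being Naip1 at -0.59 and the highest Phlda3 at 0.41.

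Of 16 apoptosome and executioner genes, 1 rose and 1 fell with the Stat4-/- genotype, with a median coefficient of -0.01. Each is 6.25% of the list, near the 7.81% called higher and 7.68% lower over all tested genes. Parp1, a DNA repair enzyme and caspase substrate, rose by 0.29 (limma adjusted p = 0.029), from 10.3 and 10.6 FPKM to 12.7 and 13.3 FPKM. Vdac1, an outer mitochondrial membrane channel, fell by 0.16 (adjusted p = 0.0297), from 97.2 and 93.1 FPKM to 85.8 and 84.1 FPKM. Parp1 passed in 5 of 7 alternative fits (adjusted p up to 0.107) and Vdac1 in 4 of 7 (up to 0.236). Vdac3 (-0.17, adjusted p = 0.0533) and the DNase gene Dffb (0.32, adjusted p = 0.13) did not pass. Among the larger LIF coefficients were those of Casp6 and Dffb (each 0.27, adjusted p = 0.221 and 0.435) and the cytochrome c gene Cycs (0.16, adjusted p = 0.163), none of which passed.

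Of 9 tested inhibitor of apoptosis genes, Naip1 fell by 0.59 with the Stat4-/- genotype (SE 0.062, limma adjusted p = 8.87e-05). It went from 33.1 and 31.8 FPKM to 22.3 and 20.2 FPKM. The list median was -0.15, and 11.1% of the list was called lower, against 7.68% over all tested genes. Naip proteins sense bacterial ligands for the inflammasome. Because 44.3% of the 31-base words of Naip1 also occur elsewhere among annotated genes, the value of a single copy is uncertain. Naip5 (-0.34, adjusted p = 0.0582), Naip6 (-0.25, adjusted p = 0.269) and Birc5 (0.18, adjusted p = 0.538) did not pass. For LIF the largest coefficients were -0.29 for Naip5 (adjusted p = 0.291), 0.28 for Birc5 (0.565), -0.16 for Naip6 (0.716) and -0.11 for Xiap (0.496), a direct caspase inhibitor gene, again with 0 calls.

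Of 14 tested death receptor and necroptosis genes, 3 rose and 0 fell with the Stat4-/- genotype, with a median coefficient of 0.07. The rises are 21.4% of the list, against 7.81% called higher and 7.68% lower over all tested genes. Nothing is read from this excess, since the list was chosen with earlier results of these data known. Traf2, an adaptor of TNF receptors, rose by 0.33 (limma adjusted p = 0.00659), from 17.5 and 17.6 FPKM to 21.9 and 22.7 FPKM. Mlkl, the executor of necroptosis, rose by 0.29 (adjusted p = 0.00559), from 33.9 and 36.1 FPKM to 39.8 and 46.6 FPKM. Tnfrsf1b, a TNF receptor gene, rose by 0.23 (adjusted p = 0.043), a call that passed in 2 of 7 alternative fits (adjusted p from 0.0355 to 0.16). The death ligand gene Tnfsf10 had a coefficient of 0.43 but did not pass (adjusted p = 0.077). For LIF the largest coefficients were 0.15 for Mlkl (adjusted p = 0.282), 0.10 for Tnfsf10 (0.847), and 0.09 for Ripk1 (0.635) and Tnfrsf1b (0.645).

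Of 14 p53 pathway genes, 4 rose and 1 fell with the Stat4-/- genotype (28.6 and 7.14%), with a median coefficient of 0.10. Over all tested genes 7.81% were called higher and 7.68% lower. This list was chosen with earlier results of these data known, so nothing is read from the excess. Phlda3, an inhibitor of Akt signalling, rose by 0.41 (SE 0.056, limma adjusted p = 0.000481), from 30.8 and 31.6 FPKM to 41.95 and 41.72 FPKM. Sesn2, a stress-induced sestrin, rose by 0.35 (adjusted p = 0.00847), Gadd45a by 0.25 (0.0211) and Trp53 itself by 0.17 (0.0301). Sesn2 passed in 5 of 7 alternative fits (adjusted p up to 0.0832), and Gadd45a and Trp53 each in 4 of 7 (up to 0.207 and 0.22). Perp, a desmosomal p53 target, fell by 0.22 (adjusted p = 0.00602), from 96.8 and 99.7 FPKM to 83.9 and 84.3 FPKM. Eda2r (0.33, adjusted p = 0.101) did not pass, and the p53 targets among the 10 members, Bax and Bbc3, are described above without a test. For LIF, Sesn1 (-0.24, adjusted p = 0.534), Sesn2 (0.21, 0.253), Ccng1 (0.17, 0.248) and Mdm4 (-0.15, 0.448) had the largest coefficients and none passed.

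Of 6 tested genes on the list of Mcl1 turnover, 0 passed limma for genotype or LIF, each with 1 at an unadjusted p under 0.05. Such a p was reached by 3610 of all 12274 tested genes for genotype and by 1537 for LIF. The largest genotype coefficients were -0.31 for Usp13 (adjusted p = 0.121), -0.11 for Fbxw7 (0.519), -0.10 for Usp9x (0.333) and -0.08 for Btrc (0.739). The largest LIF coefficients were -0.23 for Fbxw7 (adjusted p = 0.372), -0.09 for Huwe1 (0.57), -0.07 for Usp9x (0.73) and 0.04 for Ddx3x (0.767). Of the 13 genotype calls in all lists, Naip1 passed in 7 of 7 alternative fits, and it alone passed in the fit without a variance trend.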

How the data were processed

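Per the labels, libraries were made with a TruSeq RNA kit from total RNA. The submitters' processing notes name HISAT, Bowtie2 and the mm10 build. How fragments were counted, with which annotation and whether by strand, is not given in the sources used. Per the file headers, the authors deposited FPKM, printed to 2 decimals. All 4 value columns were used.

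The members and all gene lists were chosen with earlier results of these data known. Differences were taken on log2(FPKM + 1). Genes that averaged at least 1 FPKM were fitted with limma 3.58.1 in R 4.3.3 (additive terms for genotype and LIF, variance trend, two-sided, Benjamini-Hochberg over 12274 genes), with 1 residual and 10.2 prior degrees of freedom. The fit was run on data simulated with additive effects and independent noise, so that run does not show how it behaves where an interaction counts as error. The p-values rest on 1 residual contrast per gene, the difference of the LIF effects, moderated by the spread over all tested genes. No group has a replicate library, so they do not measure the spread between mice or preparations of the same genotype and treatment. All family genes were named, with up to 4 genes per list and effect by size of coefficient and every further call (Trp53 and Perp, chosen after their values were seen). A gene the rule names is not reported here. Positions, transcript lengths and 31-base words came from GENCODE M21 (mm10) and promoters from RefSeq GRCm38.p6. Depth was estimated from genes with 1 transcript of 300 to 1500 bases and FPKM up to 0.45. Alternatives covered the pseudocount, filter, scaling, variance trend and summing of Bcl2a1 copies.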

Additional observations from a re-analysis of the deposited data

Results flagged for a closer look

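Of the 10 members and the 13 other tested family genes, 3 had LIF effects of opposite sign that differed between genotypes by more than the 1.5-fold rule. Over all 12274 tested genes, 2.69% were past this rule for the difference of the LIF effects, whatever their signs. The members were listed with these differences known, so nothing is read from the count. The difference of the LIF effects, Stat4-/- minus wild type on the log2 scale, was 0.70 for Bik (-0.60 in wild type and 0.10 in Stat4-/-). It was 0.73 for Bcl2a1d (-0.39 and 0.34), and 0.26 for the summed Bcl2a1 copies. It was -0.59 for Bnip3 (0.15 and -0.44), only just past the rule of 0.585. These differences were not tested, since each rests on 4 single libraries with 0 residual degrees of freedom.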

How the results depend on the processing

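No paired analysis was possible because each group has 1 library with the same number, and leaving out a library was not run, since the additive fit would then have 0 residual degrees of freedom. Among the members, a pseudocount of 0.1 put 2 instead of 1 past 1.5-fold lower in Stat4-/- control (Bik at -0.63, from -0.56). With the Bcl2a1 copies summed, 0 instead of 1 were past it higher in Stat4-/- with LIF, and 1 instead of 2 for the difference of the LIF effects. No scaling or filter changed a count of members past 1.5-fold. The members with both Stat4-/- libraries lower went from 2 to 3, with Mcl1 added, under upper-quartile scaling and under quantile normalization. No member's difference past 1.5-fold changed sign. Scaling moved the median of all tested genes by less than 0.1.

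The limma counts over all genes depended on the processing, and the cause was not tested. For LIF, 86 higher and 15 lower became 32 and 5 with a pseudocount of 0.1, 0 and 1 without a filter, 4 and 2 with median-of-ratios scaling, 8 and 3 with upper-quartile scaling, 1 and 3 with quantile normalization, and 0 and 1 without a variance trend. For genotype, 959 higher and 943 lower became 407 and 357 without a filter and 123 and 128 without a variance trend. Low-value filters left all 10 members in. Bcl2l15 in the Stat4-/- libraries rests on about 70 and 67 fragments with its shorter and 160 and 154 with its longer coding transcript, which limits the precision of the difference between them.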
